A study of Mus musculus with 24 samples.

Results

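The 39 genes described here encode the contractile and anchoring machinery of the heart muscle cell: proteins of the thick and thin filaments, the M-band, the Z-disc, the stretch-responsive complexes at the Z-disc and I-band, the costamere and intercalated disc, and 2 myosin chaperones. They were chosen by name, as the genes of a fixed list whose name appears in the probe annotation of the arrays. The list was drawn up with earlier results of these data known, so its counts beside those of all genes are a description. Each gene was read from the brightest probe detected well above background. All 39 were measured at both times, among 18751 genes tested at 16 h and 19672 at 72 h. The arrays hold 67 probes for them, and 15 of the genes have more than 1.

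RNA came from cardiomyocytes freshly isolated by heart perfusion from mice of a mixed 129SvEv/C57BL/6 background, which the labels give as 6 weeks old. Wild-type mice and mice with a conditional deletion of Top2b in cardiomyocytes received doxorubicin at 25 mg/kg or phosphate-buffered saline (PBS), both into the peritoneum, and hearts were taken 16 h or 72 h later. The 8 groups of genotype, treatment and time hold 3 arrays each, 24 single-colour Agilent arrays in all, numbered 1 to 3 at 16 h and 2 to 4 at 72 h. The drug traps type II topoisomerases on DNA, and Top2b encodes the beta isoform, the main one in non-dividing heart muscle cells. The labels do not name a Cre driver or say whether wild-type mice carried Cre or floxed alleles, and they do not say that arrays of a group come from separate animals, so p-values measure the spread between these arrays.

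In the sarcomere, myosin thick filaments slide along actin thin filaments. The barbed ends of these thin filaments are fixed in the Z-disc, and tropomodulin caps their pointed ends. Titin spans from the Z-disc to the M-band, and the Z-disc carries a second layer of LIM- and PDZ-domain proteins that bind alpha-actinin and report stretch to the nucleus. Costameres, built on vinculin, filamin C and the dystrophin and sarcoglycan complex, tie the outermost Z-discs to the cell membrane and matrix. Inherited variants in many of these genes cause hypertrophic or dilated cardiomyopathy or muscular dystrophy.

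Some labels did not match the arrays. Where a result depends on them, values are also given under another genotype label, with a covariate or with single arrays left out. No fit left out all arrays with conflicting genotype labels at once. Levels are log2 values relative to the 75th percentile of the array, which is set to 0. Top2b read 4.03 to 4.39 on the 6 wild-type arrays at 16 h and 2.54 to 3.34 on the 6 Top2b-deleted arrays, a difference of -1.22 (exact permutation test over arrays, two-sided p = 0.0022). At 72 h it read 3.25 to 3.65 and 2.13 to 3.07, a difference of -0.92 (exact permutation p = 0.0022), so genotype was taken from the sample titles. On 4 arrays at 16 h, 1 in each group, another label gives the opposite genotype, and with that label the Top2b difference at 16 h was -0.26 (exact permutation p = 0.51). All mice are labelled male, yet 17 of the 24 arrays lacked Y-linked Ddx3y signal. The 7 arrays that carried it were the 3 wild-type PBS arrays at 16 h, replicate 1 of both doxorubicin groups at 16 h, wild-type PBS replicate 4 and Top2b-deleted PBS replicate 3 at 72 h. A probe for Xist, an X-linked RNA of female cells, was above background on all the 17 arrays, at -2.38 to 0.59. It read -6.20 to -5.52, at background, on the 7 with Ddx3y. Of the 17, a second Xist probe missed only wild-type doxorubicin replicate 3 at 16 h. By these genes the 17 arrays read as female, against their label, and Y-linked signal follows sex. Wild-type PBS arrays at 16 h then all read as male. The members Fhl1, Dmd and Smpx lie on the X chromosome. One probe for Esr1 read 5.04 to 7.10 on the 12 Top2b-deleted arrays, and -5.96 to -5.48 on the wild-type PBS arrays at 16 h. It read up to 1.05 on the wild-type doxorubicin arrays at 16 h and up to 8.58 on wild-type PBS arrays at 72 h, so the wild-type groups were not uniform in that signal. At 16 h all wild-type arrays and 2 Top2b-deleted PBS arrays lay on 1 slide, and the other 4 Top2b-deleted arrays on another. At 72 h replicate 4 of every group lay on a slide of its own.

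Doxorubicin lowered the mRNA of 15 of the 39 genes in wild-type cardiomyocytes at 16 h and raised none. Across all genes 14.1% were lower and 13.7% higher in the same comparison (limma, Benjamini-Hochberg adjusted p under 0.05, here called passing). The median difference over the 39 genes was -0.37 on the log2 scale, against -0.02 over all genes, and 37 of the 39 were negative. Between arrays alike in Y-linked signal (1 doxorubicin against 3 PBS arrays), the median over the 39 genes was -0.16, against 0.08 over all genes. In that comparison 31 of the 39 were negative. With Y-linked signal as a covariate the median was -0.27 against 0.01. Then 31 were negative, and 12 members passed as lower and 0 as higher, against 2728 and 2569 of 18751 genes. With the Esr1 probe as a covariate the median was -0.15 against 0.08. Then 31 were negative, and 12 members passed as lower and 1 as higher, against 3152 and 3097 of 18751 genes. By role, falls passed for 6 of 11 Z-disc structural genes, 2 of 6 stretch-response genes, 5 of 8 costamere genes, 1 of 2 chaperones, 1 of 6 thin-filament genes (Tmod1) and 0 of 6 thick-filament and M-band genes. Whether the roles differ in this was not tested. In such bulk samples fewer cells of a type and less RNA per cell cannot be told apart.

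**Figure D1:**
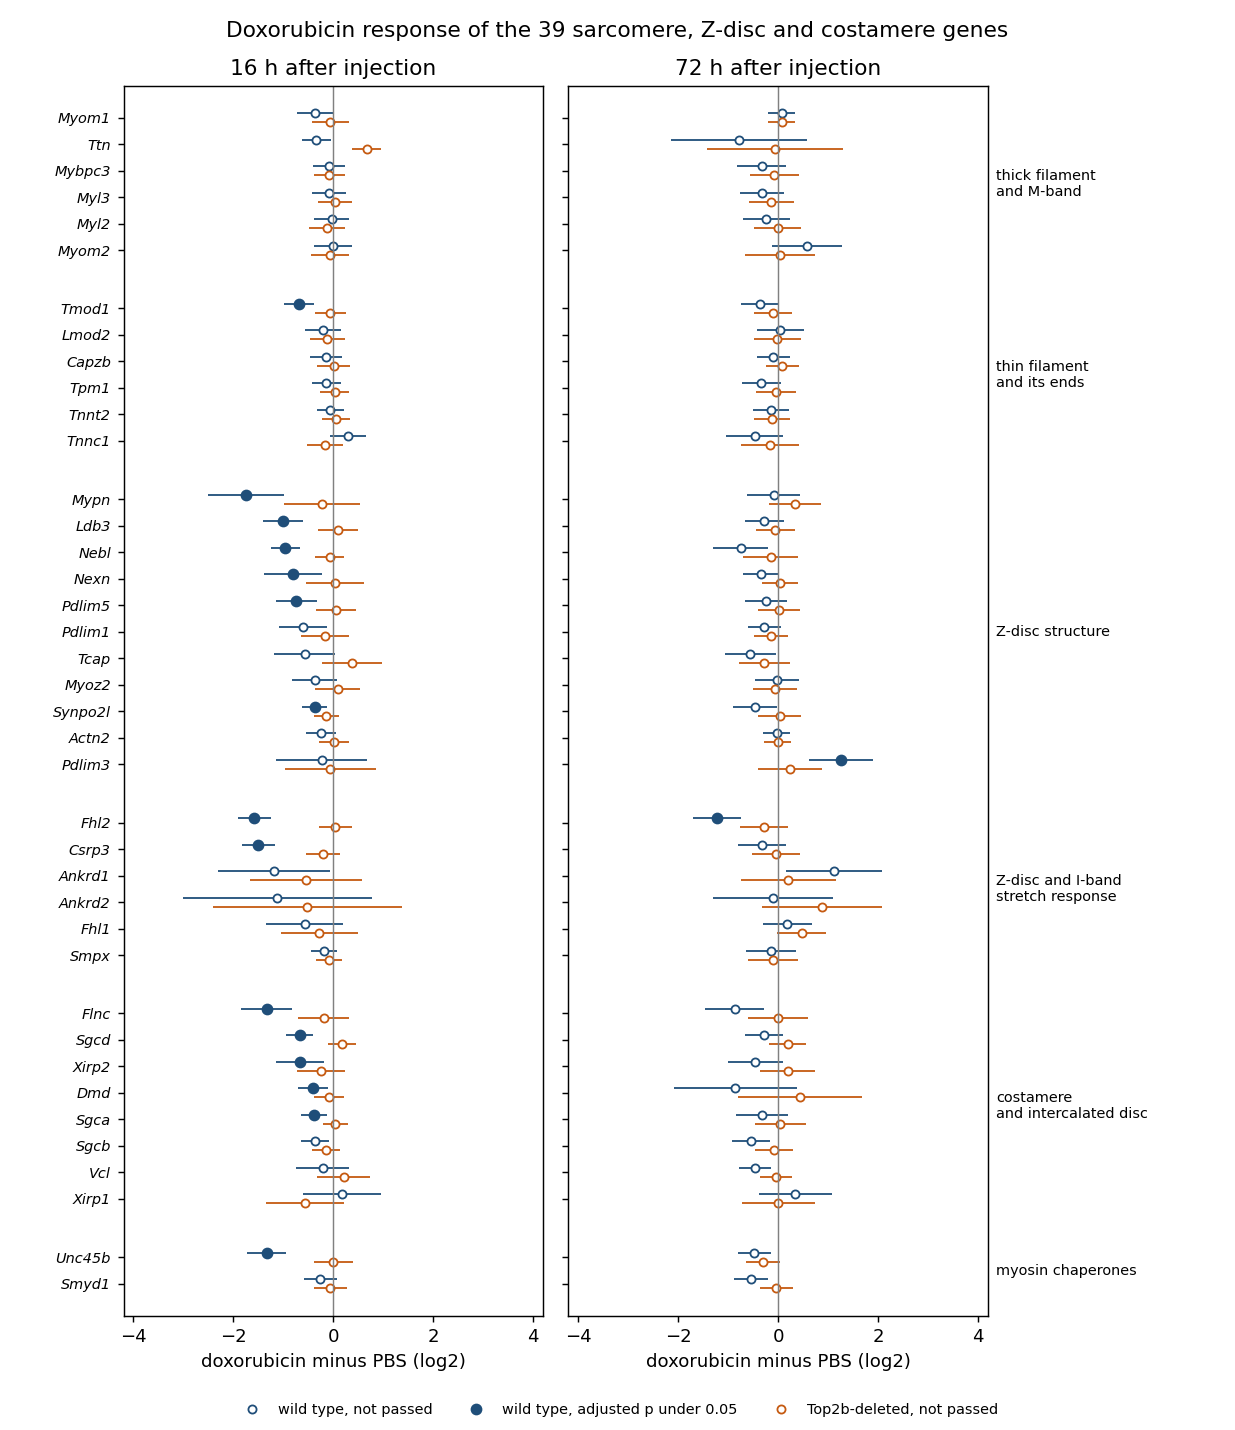
Doxorubicin minus PBS difference in log2 level (horizontal axis) for each of the 39 genes, ordered by role, at 16 h (left) and 72 h (right), with 95% confidence intervals, in wild-type (blue) and Top2b-deleted (orange) cardiomyocytes; filled points passed at adjusted p under 0.05. In wild-type cells at 16 h 15 genes lie to the left as filled points, whereas no Top2b-deleted point is filled at either time.

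The Z-disc structural genes that fell bind alpha-actinin, titin or actin at the Z-disc. Nebl, which encodes nebulette, a nebulin-like linker of thin filaments to the Z-disc, read 3.51, 3.44 and 3.37 on the wild-type PBS arrays and 2.63, 2.48 and 2.32 with doxorubicin. The doxorubicin arrays all lay below the PBS arrays, and the fall was 1.95-fold (-0.96, SE 0.13, limma adjusted p = 0.00068). Ldb3, also called Cypher or ZASP, a PDZ-LIM protein that stabilises the Z-disc, read 6.02, 6.17 and 6.55 under PBS and 4.99, 5.20 and 5.54 with doxorubicin. These groups did not overlap either, and by its brightest probe Ldb3 fell 2.01-fold (-1.01, SE 0.18, limma adjusted p = 0.0028). Mypn, encoding myopalladin, which tethers nebulin-family proteins to alpha-actinin, had the most negative difference of the 39 genes at -1.75 (SE 0.34, limma adjusted p = 0.0043). Its doxorubicin arrays were widely spread, at -0.71, -1.46 and 0.29, below the PBS arrays at 0.87, 1.17 and 1.33. Pdlim5, the PDZ-LIM protein ENH, fell by 0.74 (SE 0.18, limma adjusted p = 0.013). Nexn, encoding the actin-binding protein nexilin, was at -0.80 (limma adjusted p = 0.043), and its doxorubicin and PBS arrays overlapped. Synpo2l, a synaptopodin-like protein of the Z-disc, was at -0.37 (limma adjusted p = 0.032). The calls of Nexn and Synpo2l were lost in 11 of 19 alternative analyses each. The others of this role, Pdlim1, Tcap, Myoz2, Actn2 and Pdlim3, had differences between -0.60 and -0.23 that did not pass. Alpha-actinin itself, the core crosslinker encoded by Actn2, was at -0.24 (95% interval -0.54 to 0.06).

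A pair of LIM-domain genes of the stretch-response group, Fhl2 and Csrp3, had the smallest adjusted p-values of the 39. Fhl2, which binds titin and dampens signalling through calcineurin and ERK, read 9.68, 9.67 and 9.72 under PBS and 8.19, 7.79 and 8.36 with doxorubicin. The PBS arrays lay within 0.06 of each other and all doxorubicin arrays lay more than 1 below them, a 2.99-fold fall (-1.58, SE 0.15, limma adjusted p = 8.7e-05). Csrp3, encoding muscle LIM protein, a Z-disc protein whose loss dilates the mouse heart, read 8.43, 8.57 and 8.94 under PBS and 7.39, 7.06 and 6.98 with doxorubicin, also without overlap. Csrp3 fell 2.84-fold (-1.50, SE 0.15, limma adjusted p = 0.00013). Ankrd1, encoding the titin-associated, stress-induced ankyrin repeat protein CARP, was at -1.19 but spread too widely to pass (95% interval -2.30 to -0.07, limma adjusted p = 0.11). Its PBS arrays read 6.89, 7.64 and 8.53 and its doxorubicin arrays 7.13, 5.39 and 6.98, which overlap. Ankrd2, its skeletal-muscle relative, was well above background on 4 of the 6 arrays, Fhl1 was at -0.57 and Smpx at -0.19, and none of the 3 passed.

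Among the costamere and intercalated-disc genes, Flnc, encoding the muscle filamin that crosslinks actin at the Z-disc and membrane, read 5.46, 5.45 and 6.31 under PBS and 4.49, 4.67 and 4.05 with doxorubicin. The groups were separate, and Flnc fell 2.53-fold (-1.34, SE 0.23, limma adjusted p = 0.0022). Sgcd, which encodes delta-sarcoglycan of the membrane complex that stabilises dystrophin, fell by 0.68 (SE 0.12, limma adjusted p = 0.0030). Sgca, alpha-sarcoglycan, was at -0.38 (limma adjusted p = 0.031), and Dmd, dystrophin, was at -0.41 (limma adjusted p = 0.048). Xirp2, a Xin-repeat actin-binding protein of the intercalated disc, was at -0.67 (limma adjusted p = 0.041). The calls of Sgca, Dmd and Xirp2 were lost in 14 or 15 of 19 alternative analyses. Sgcb, beta-sarcoglycan, at -0.36 (limma adjusted p = 0.058) was the gene nearest to the threshold among those that missed it. Vcl, vinculin, was at -0.22, and Xirp1 was at 0.18 with doxorubicin arrays at 4.62, 3.73 and 2.82 around PBS arrays at 3.498 to 3.595. For Xirp1 and Tcap the value turned on which arrays were compared. The 1 doxorubicin array with Y-linked signal, replicate 1, differed from the PBS arrays, which all carry it, by 1.07 for Xirp1 and by -1.31 for Tcap, and a single array gives no spread of its own for these differences.

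Unc45b, the muscle-specific chaperone that folds the myosin head, read 3.61, 3.52 and 3.79 under PBS and 2.46, 2.10 and 2.36 with doxorubicin. The fall was 2.52-fold with no overlap (-1.33, SE 0.17, limma adjusted p = 0.00055). Smyd1, a methyltransferase that works with it in myosin assembly, was at -0.26 and did not pass.

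The filament genes themselves differed little. Tmod1, which encodes the tropomodulin that caps the pointed ends of thin filaments, fell by 0.68 (SE 0.14, limma adjusted p = 0.0049). The other thin-filament genes, Lmod2, Capzb, Tpm1, Tnnt2 and Tnnc1, had differences from -0.20 to 0.29. The thick-filament and M-band genes lay between -0.36 and -0.01. Mybpc3, the myosin-binding protein C gene, was at -0.09 (95% interval -0.40 to 0.23), Myl3, the essential light chain, at -0.08 (-0.43 to 0.26) and Tnnt2, troponin T, at -0.06 (-0.33 to 0.22). These intervals exclude a fall as large as that of Fhl2, Csrp3 or Unc45b.

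**Figure D2:**
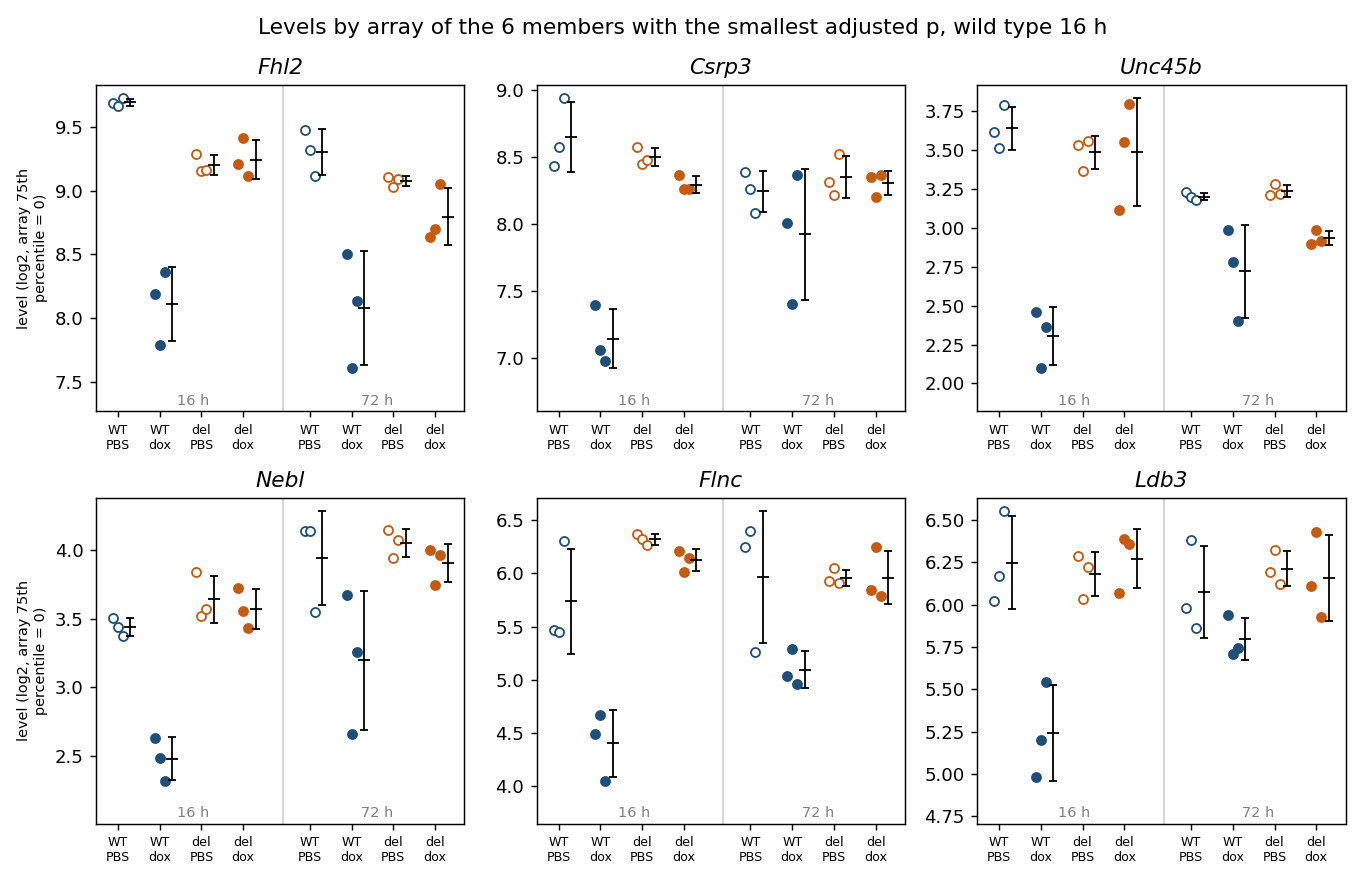
Log2 level relative to the array's 75th percentile (vertical axes) of the 6 genes with the smallest adjusted p in wild-type cells at 16 h, in each of the 8 groups; each point is 1 array, open for PBS and filled for doxorubicin, blue for wild type and orange for Top2b-deleted (del), and the bar beside it is the mean with its SD (n = 3). At 16 h all 3 wild-type doxorubicin arrays lie below every other 16 h array for each of the 6 genes.

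For arrays alike in Y-linked signal the doxorubicin group at 16 h comes down to a single array. The 1 wild-type doxorubicin array that carries Ddx3y, replicate 1, read 8.19 for Fhl2, 7.39 for Csrp3 and 2.46 for Unc45b, each below all 3 PBS arrays. Compared with those PBS arrays alone, it gave differences of -1.51 for Fhl2, -1.25 for Csrp3, -1.18 for Unc45b, -0.81 for Nebl, -1.26 for Ldb3 and -1.25 for Flnc. These have no replicate in the doxorubicin group, and a fit of them takes the spread from the other groups, so they are given as values with no call. With the genotype taken from the contradicting label no member passed, and neither did any other gene (0 of 18751).

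Promoter sequences are shown because 15 members moved one way at 16 h. The windows hold the 250 bases before the annotated start and come from RefSeq on GRCm38.p6, which lists a window for 35 of the 39 genes (not for Tcap, Xirp1, Myom2 or Nexn). A CArG box, the motif bound by serum response factor, stood on either strand in at least 1 window of 8 of the 35 genes (22.9%), against 1.62% of 27025 genes. A MEF2 site, the motif of the muscle MEF2 factors, stood in 7 (20%, against 3.42%). An M-CAT element (CATTCC), the motif of TEAD factors, stood in 12 (34.3%, against 14.4%), an E-box (CANNTG) in 27 (77.1%, against 69.3%) and a TATA box (TATAAA) in 9 (25.7%, against 14.3%). Among the 14 genes with a window that fell at 16 h, 4 held a CArG box (Fhl2, Ldb3, Nebl and Dmd), and among the 21 others 4 did (Myl3, Myom1, Fhl1 and Vcl). For the MEF2 site the counts were 4 of 14 and 3 of 21, and for the M-CAT element 5 of 14 and 7 of 21. Genes of both kinds held these motifs, and a match of letters is a description, not a bound site.

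The 120 bases next to the start are given for genes that fell and for 2 that did not pass, 5′ to 3′ on the strand of the gene, with matches of the CArG box, MEF2 site, M-CAT element and TATA box in capitals. RefSeq lists 2 windows for Fhl2, Ldb3, Dmd, Csrp3 and Tnnt2, and 1 is shown for each of these but Fhl2. The windows of Fhl2 each have a CArG box of their own, CCAAAAAAGG and CCTTATATGG, and those of Ldb3 overlap and share theirs. The MEF2 match of the first overlaps a TATA box match.
Fhl2, chr1:43196762-43196881, minus strand: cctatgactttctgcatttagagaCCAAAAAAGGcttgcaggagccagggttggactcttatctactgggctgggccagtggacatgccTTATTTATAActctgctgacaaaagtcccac
Fhl2, chr1:43163962-43164081, minus strand: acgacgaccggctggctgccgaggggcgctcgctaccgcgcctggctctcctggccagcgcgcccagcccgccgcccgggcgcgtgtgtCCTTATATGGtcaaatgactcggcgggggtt
Ldb3, chr14:34588682-34588801, minus strand: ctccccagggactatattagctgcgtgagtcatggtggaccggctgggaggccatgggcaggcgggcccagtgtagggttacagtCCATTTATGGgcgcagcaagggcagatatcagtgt
Dmd, chrX:82948750-82948869, plus strand: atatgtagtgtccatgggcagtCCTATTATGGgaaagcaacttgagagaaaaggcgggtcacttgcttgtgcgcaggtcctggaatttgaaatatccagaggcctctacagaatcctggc
Mypn, chr10:63203953-63204072, minus strand: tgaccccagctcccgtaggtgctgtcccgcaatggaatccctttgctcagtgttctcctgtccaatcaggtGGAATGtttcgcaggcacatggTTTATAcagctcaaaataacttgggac
Csrp3, chr7:48848052-48848171, minus strand: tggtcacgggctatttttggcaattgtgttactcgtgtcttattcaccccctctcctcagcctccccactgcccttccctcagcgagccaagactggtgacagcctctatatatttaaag
Unc45b, chr11:82911133-82911252, plus strand: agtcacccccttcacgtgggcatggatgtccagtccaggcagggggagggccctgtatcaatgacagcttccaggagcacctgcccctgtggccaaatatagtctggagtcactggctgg
Myl3, chr9:110763558-110763677, plus strand: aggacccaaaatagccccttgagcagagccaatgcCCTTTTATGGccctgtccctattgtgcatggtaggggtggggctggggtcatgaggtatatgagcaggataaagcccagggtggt
Tnnt2, chr1:135836214-135836333, plus strand: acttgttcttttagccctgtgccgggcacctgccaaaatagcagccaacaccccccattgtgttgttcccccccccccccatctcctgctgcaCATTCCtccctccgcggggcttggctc
The lines of Csrp3 and Unc45b, which fell, hold none of the 4 motifs in these bases, while that of Myl3, at -0.08, holds a CArG box.

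Different probes of a gene did not always give the same response. At 16 h 14 of the genes had more than 1 probe above background. In Ldb3 the brightest probe, on mm9 chr14:35374689-35374748, was at -1.01, whereas a probe at chr14:35340222-35340281, which the files assign to another transcript, was at -2.46 (SE 0.18, limma adjusted p = 3.1e-05 over all probes). In Top2b-deleted cells the same probe was at 0.01. Myl2, the ventricular regulatory light chain, was at -0.03 by its brightest probe, on chr5:122556732-122556791. Another probe at chr5:122555230-122555289, assigned to a different transcript and at a mean level of 1.13, was at -2.26 (SE 0.25, limma adjusted p = 0.00019) in wild-type cells and at -0.06 in Top2b-deleted cells. At 72 h that probe was at -0.56 (SE 0.86) in wild-type cells. For Sgcb a probe at chr5:74024927-74024986 was at -0.71 (limma adjusted p = 0.0021), while its brightest probe at 16 h was at -0.36 and did not pass.

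**Figure D3:**
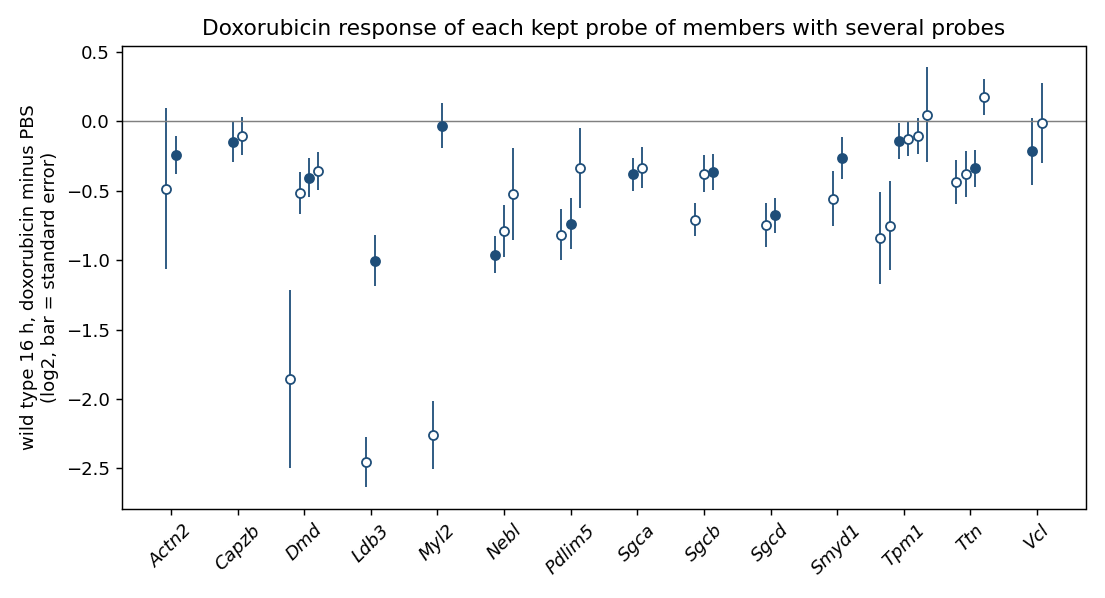
Doxorubicin minus PBS difference in log2 level in wild-type cells at 16 h (vertical axis, bars are standard errors) for every probe above background of the 14 genes with more than 1 such probe; filled points are the brightest probe, used elsewhere. The probes of Ldb3 and Myl2 lie far apart, at -1.01 and -2.46 and at -0.03 and -2.26, while those of Sgca, Sgcd and Capzb lie close together.

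The 77 other tested genes of the myofilaments, Z-disc, M-band, costamere and dystrophin complex come from lists that hold no member. These lists too were chosen with earlier results of these data known. The 77 genes also fell more often than they rose: 32 were lower and 2 higher, with a median of -0.42. Of the other Z-disc and M-band genes 13 of 28 fell, led by Myo18b (-1.43, limma adjusted p = 0.00049), Obsl1 (-1.30, 0.00069) and Trim55 (-1.11, 0.00086), the last a titin-associated ubiquitin ligase. Of the other costamere genes 12 of 27 fell and 2 rose, and those that fell included Lama2 (-1.11), the laminin of muscle basement membrane, and Sorbs2 (-1.66). Of the other myofilament genes 7 of 22 fell, led by Mylk3 (-1.03), the cardiac myosin light chain kinase, Myl9 (-1.41) and Fhod3 (-1.45). Myl9 is a smooth-muscle light chain, and the 10 smooth-muscle and pericyte markers summed to 50.5 to 55.7 on the doxorubicin arrays against 128 to 147 on the PBS arrays, in units of the array's 75th percentile. The 10 cardiomyocyte markers, none of them among the 39, summed to 7138 to 9231 against 9059 to 10090, and 5 of 11 skeletal-muscle markers that could be read summed to 28.5 to 36.4 against 39.6 to 48.0. Myh1, Myh2, Myh4, Actn3, Mylpf and Myod1 of skeletal muscle were not above background. Of 9 fibroblast markers 4 fell, with sums of 26.4 to 53.7 against 29.3 to 41.4 (Tcf21 not read), and of 4 neutrophil markers 3 rose. The part of these shifts in the falls was not tested.

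**Figure D4:**
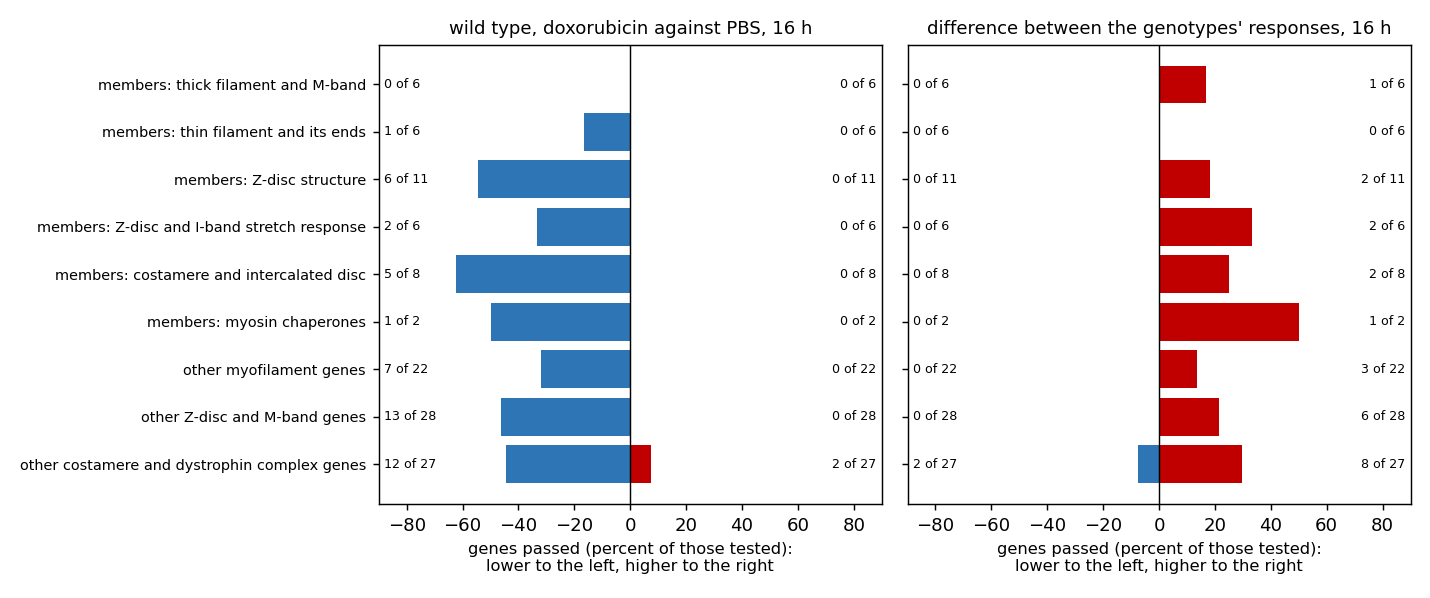
Percentage of the tested genes of each list (rows) that passed at adjusted p under 0.05, lower to the left and higher to the right, with counts at the margins, for wild-type doxorubicin against PBS at 16 h (left) and for the difference between the responses of the 2 genotypes at 16 h (right). Among the members the Z-disc and costamere groups have 6 of 11 and 5 of 8 genes lower, and the thick-filament group has 0 of 6.

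In Top2b-deleted cardiomyocytes no member passed at 16 h (limma, 0% of all genes did, in either direction). Ttn was the 1 member with an unadjusted limma p under 0.05, which 791 of 18751 genes had. The median over the 39 genes was -0.06. The 15 genes that fell in wild-type cells had differences between -0.25 (Xirp2) and 0.17 (Sgcd), of which 8 were negative. Fhl2 read 9.29, 9.15 and 9.16 under PBS and 9.21, 9.41 and 9.11 with doxorubicin in these cells. Csrp3 read 8.58, 8.45 and 8.48 under PBS and 8.36, 8.26 and 8.26 with doxorubicin. Unc45b read 3.54, 3.36 and 3.56 under PBS and 3.12, 3.55 and 3.80 with doxorubicin. The groups overlapped for Fhl2 and Unc45b, and for Csrp3 the doxorubicin arrays lay just below the PBS arrays, by -0.21 (95% interval -0.54 to 0.13).

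The difference between the responses of the genotypes, which subtracts the wild-type from the Top2b-deleted response, passed for 8 of the 39 genes at 16 h, all higher, against 6.17% of all genes higher and 5.27% lower. The median over the 39 genes was 0.42, and over all genes 0.00. Without wild-type PBS replicate 3 the members' median was 0.21, against -0.005 over all genes. With Y-linked signal as a covariate it was 0.16 against -0.047, and between arrays matched in that signal 0.10 against -0.075. With the Esr1 probe as a covariate it was 0.06 against -0.096. The difference between the responses was 1.62 for Fhl2 (SE 0.21, limma adjusted p = 0.0019), 1.30 for Csrp3 (SE 0.21, 0.0054) and 1.33 for Unc45b (SE 0.25, 0.0092). The other genes were Ttn at 1.01 (0.0096), Sgcd at 0.85 (0.015), Nebl at 0.89 (0.016), Ldb3 at 1.10 (0.023) and Flnc at 1.14 (0.048). In 23 alternative analyses the Flnc call was kept in 7, lost in 15 and reversed in 1. The Ldb3 call was lost in 7 of them and the Nebl call in 5. All of the 8 genes but Ttn had fallen in wild-type cells, and both contrasts share the wild-type arrays. Sgcd read 1.499, 1.592 and 1.708 under PBS and 1.015, 0.829 and 0.927 with doxorubicin in wild-type cells, and 1.68, 1.45 and 1.62 against 1.60, 1.94 and 1.73 in Top2b-deleted cells. Nebl in Top2b-deleted cells read 3.84, 3.52 and 3.57 under PBS and 3.72, 3.55 and 3.43 with doxorubicin, so these groups overlapped. With slide as a block 2 of the 8 passed, Fhl2 at 1.66 (limma adjusted p = 0.024) and Csrp3 at 1.32 (0.049). In that fit 373 of 18751 genes passed, against 2144 without the block. Top2b-deleted doxorubicin arrays shared no slide with a wild-type array. Restricted to arrays with the same Y-linked signal within each genotype, which leaves 1 wild-type doxorubicin array, the differences were 1.56 for Fhl2, 1.01 for Csrp3, 1.36 for Unc45b and 1.13 for Ttn, and 1.65 for Tcap and -1.66 for Xirp1. They rest on that array, whose spread is assumed to be that of the other groups, and no call is drawn from them.

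Ttn, which encodes titin, was the only gene of the 8 whose difference came mostly from the Top2b-deleted cells. There it read 6.80, 6.92 and 6.92 under PBS and 7.33, 7.55 and 7.76 with doxorubicin, a difference of 0.67 without overlap (95% interval 0.37 to 0.96), which did not pass over all genes (limma adjusted p = 0.82). In wild-type cells it read 7.31, 6.94 and 7.14 under PBS and 6.77, 6.79 and 6.81 with doxorubicin, a difference of -0.34 (limma adjusted p = 0.082). Its 4 probes did not read alike: those at chr2:76542077-76542136, chr2:76551742-76551801 and chr2:76655847-76655906 gave differences between the responses of 1.01, 0.88 and 0.77. The other probe, at chr2:76802542-76802601 and assigned to a different transcript, gave -0.04. The call of Ttn was lost with slide as a block.

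Under PBS, without doxorubicin, 4 members were higher in Top2b-deleted than in wild-type cells at 16 h and none lower, against 6.77% of all genes higher and 5.68% lower. All 3 wild-type arrays of this comparison carry Y-linked signal and all 3 Top2b-deleted arrays lack it, so genotype and that signal cannot be told apart between them. Pdlim3, which encodes the alpha-actinin-binding PDZ-LIM protein ALP, read 1.91, 2.16 and 3.31 in wild-type and 5.36, 5.31 and 5.17 in Top2b-deleted cells. It was 7.06-fold higher there (2.82, SE 0.41, limma adjusted p = 0.0023), with no overlap. At 72 h it read 1.48, 1.22 and 1.74 against 4.78, 4.70 and 4.55, a 9.15-fold difference (3.19, SE 0.29, limma adjusted p = 0.00027). Of the 39 genes Pdlim3 alone passed at 72 h, when 2.15% of all genes passed, 1.07% higher and 1.08% lower, and it kept its call in all 18 alternative analyses of that comparison. Blocking on the replicate number, which at 72 h also separates the slides, added Myoz2, the calcineurin-binding Z-disc protein calsarcin-1, at 0.62 (limma adjusted p = 0.019), for 2 members in place of 1. Same-numbered arrays of these 2 groups correlated by 0.35 to 0.55 in their deviations from the group means.

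Tnnc1, encoding the calcium-binding troponin C of slow and cardiac muscle, read 7.48, 7.81 and 7.87 in wild-type and 8.84, 8.83 and 8.71 in Top2b-deleted cells under PBS at 16 h (1.07, SE 0.16, limma adjusted p = 0.0028). With the Esr1 probe as a covariate this difference was 0.20 (limma adjusted p = 0.75), and with the second genotype label it was 0.51, and neither passed. Under PBS at 16 h the Esr1 probe read -5.96 to -5.48 in wild-type and 5.73 to 6.45 in Top2b-deleted cells. Genotype and that signal cannot be told apart in this comparison, so the covariate value does not separate them. At 72 h the Tnnc1 difference was 0.71 (95% interval 0.14 to 1.28) and did not pass (limma adjusted p = 0.25). Fhl1, a LIM-only protein of the titin N2B region that takes part in hypertrophic signalling, was higher at 16 h by 1.30 (limma adjusted p = 0.036), with wild-type arrays at -0.02, 0.45 and 1.46 and Top2b-deleted arrays at 2.14, 2.00 and 1.67. Sgcb was higher by 0.45 (limma adjusted p = 0.046), reading 4.09, 4.34 and 4.41 in wild-type and 4.79, 4.68 and 4.72 in Top2b-deleted cells. The arrays were separate for all 3 genes, but the calls of Fhl1 and Sgcb were lost in 12 and 15 of 18 alternative analyses. Fhl2 was the gene nearest to the threshold among those that missed it, at -0.49 (limma adjusted p = 0.055). Ankrd1 was at 1.59 at 16 h (limma adjusted p = 0.067) and 1.38 at 72 h (0.16).

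**Figure D5:**
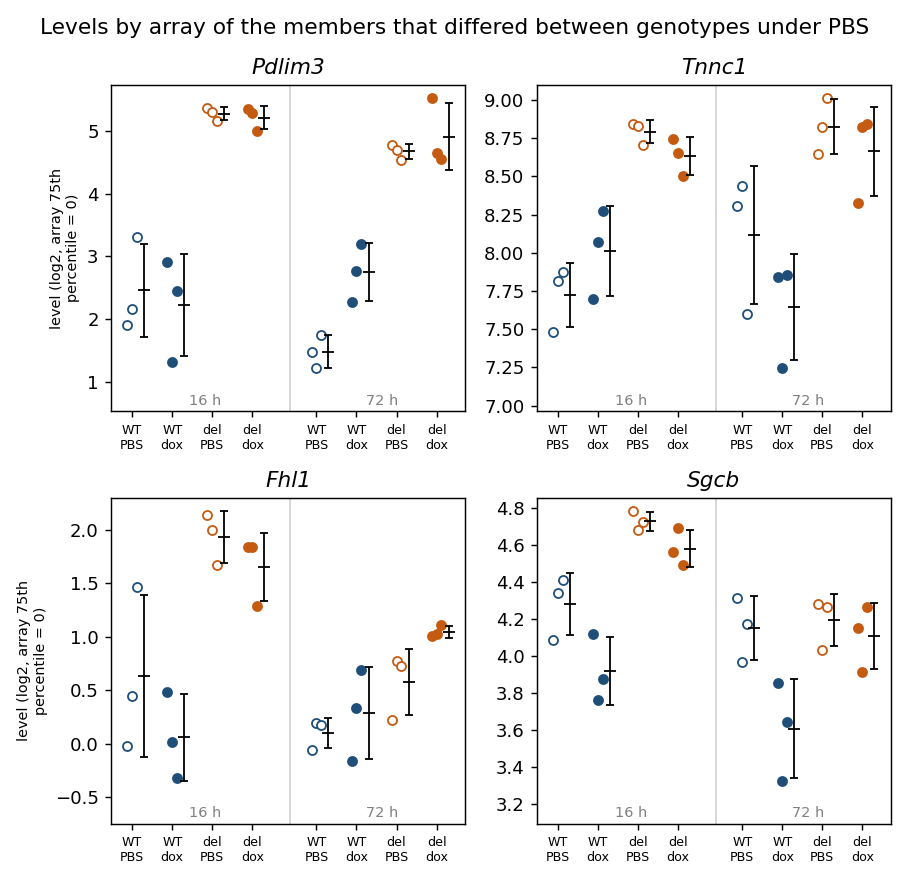
Log2 level relative to the array's 75th percentile (vertical axes) of the 4 genes that passed between Top2b-deleted and wild-type cells under PBS at 16 h, in each of the 8 groups, with points, colours and bars (mean and SD, n = 3) as in the plot of the 6 genes above; Sgcb was read by different probes at the 2 times. Pdlim3 is higher on all 12 Top2b-deleted arrays than on all 12 wild-type arrays.

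Other genes of the machinery also differed between the genotypes under PBS. At 16 h 10 of the 77 were higher and 6 lower in Top2b-deleted cells, among them Myh7 (4.72, limma adjusted p = 0.0030), the slow myosin heavy chain, Tnni1 (2.88, 0.016), the slow troponin I, and Actn4 (1.30, 0.00042). At 72 h Tnni1 (2.56, 0.0015) and Mybpc2 (1.59, 0.0032) were higher and none was lower. Of the 7 atrial markers 6 could be read and Bmp10 could not. Their sum was 1580 to 1827 in Top2b-deleted and 250 to 747 in wild-type PBS arrays at 16 h, and 823 to 1385 against 76.3 to 162 at 72 h. That sum was led by Nppa (2.45 higher at 16 h, limma adjusted p = 0.0030), the natriuretic peptide gene, whereas Myl7 and Sln, which mark atrial cells, were at -1.80 (0.12) and -2.49 (0.050). Of 9 fibroblast markers 5 were higher in Top2b-deleted PBS arrays at 16 h (sums of 53.2 to 105.6 against 29.3 to 41.4) and none at 72 h, and of 10 smooth-muscle markers 3 were lower at 16 h. Of the 10 cardiomyocyte markers 3 were lower at 16 h, with sums of 6948 to 7091 against 9059 to 10090. The part of cell composition in the genotype differences was not tested.

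At 72 h 1 member had fallen and 1 had risen in wild-type cells, against 2.69% of all genes, 1.75% lower and 0.946% higher. Fhl2 read 9.47, 9.32 and 9.11 under PBS and 8.501, 7.609 and 8.134 with doxorubicin, a 2.33-fold fall (-1.22, SE 0.22, limma adjusted p = 0.030). Pdlim3, which under PBS was low in wild-type cells, read 1.48, 1.22 and 1.74 under PBS and 2.27, 2.77 and 3.20 with doxorubicin, a 2.40-fold rise (1.26, SE 0.29, limma adjusted p = 0.049). Neither gene overlapped between the groups, yet both calls were lost when any of several single arrays was left out: Fhl2 without PBS replicate 2 or 3 or doxorubicin replicate 3 or 4, and Pdlim3 without the same arrays. The median over the 39 genes was -0.32, against -0.08 over all genes, and 32 were negative. All 15 genes that fell at 16 h were negative at 72 h, from -1.22 for Fhl2 to -0.09 for Mypn. Smyd1 was nearest to the threshold at -0.54 (limma adjusted p = 0.071), followed by Flnc at -0.87 (0.090). With slide as a block, 2639 of 19672 genes passed, 1090 higher and 1549 lower. Among them were 6 members: Pdlim3 higher, and Fhl2, Flnc (-0.87), Ttn (-0.78), Smyd1 (-0.54) and Unc45b (-0.48) lower. For Ttn the wild-type PBS arrays read 8.84, 8.71 and 7.08 and the doxorubicin arrays 8.15, 7.44 and 6.69, with replicate 4 lowest in each group. Replicate 4 was the only array of each group on the other slide, so slide and replicate cannot be told apart. At this time the 10 endothelial markers summed to 121.8 to 185.1 on wild-type doxorubicin and 53.4 to 136.2 on PBS arrays and none passed, and the cardiomyocyte markers to 4588 to 7265 against 7469 to 10470, with none passing. Of 5 neutrophil markers that could be read 2 were higher (sums of 127.3 to 230.3 against 104.4 to 246.8), and of 5 skeletal-muscle markers 1 was lower (sums of 16.5 to 19.4 against 28.4 to 35.4). The part of these markers in the result was not tested.

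In Top2b-deleted cells no member passed at 72 h (limma, 0% of all genes in either direction), and the median was -0.01. No member had an unadjusted limma p under 0.05, which 429 of 19672 genes had. Fhl2 read 9.11, 9.03 and 9.09 under PBS and 8.64, 8.70 and 9.05 with doxorubicin, and Pdlim3 read 4.78, 4.70 and 4.55 against 5.52, 4.65 and 4.56. The doxorubicin arrays overlapped the PBS arrays in both genes. The difference between the responses of the genotypes passed for no member at 72 h (limma; 0% of all genes). It was 0.94 for Fhl2 (95% interval 0.26 to 1.62) and -1.03 for Pdlim3 (-1.94 to -0.12). An unadjusted limma p under 0.05 was reached by 4 members, against 1389 of 19672 genes. Of the other 77 genes 1 rose and 4 fell in wild-type cells at 72 h. They were Neb (1.29, limma adjusted p = 0.044), Lmod3 (-1.48, 0.048), Tln2 (-1.13, 0.029), Sspn (-0.99, 0.032) and Dag1 (-0.73, 0.049), the last 2 encoding sarcospan and dystroglycan of the dystrophin complex.

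The wild-type response at 72 h was less negative than that at 16 h for 3 members, against 5.6% of all genes, 2.08% higher and 3.52% lower, in this contrast over all 24 arrays. Csrp3 differed by 1.18 (SE 0.27, limma adjusted p = 0.014), having read 8.39, 8.26 and 8.08 under PBS and 8.005, 7.398 and 8.363 with doxorubicin at 72 h. Its groups overlapped then, whereas at 16 h they had not. Mypn differed by 1.66 (SE 0.43, limma adjusted p = 0.032), with 72 h arrays at 1.25, 1.24 and 0.85 under PBS and 1.10, 1.35 and 0.61 with doxorubicin. Unc45b differed by 0.85 (SE 0.23, limma adjusted p = 0.034), with 72 h arrays at 3.23, 3.20 and 3.18 under PBS and 2.98, 2.78 and 2.40 with doxorubicin. At 72 h the doxorubicin and PBS arrays of Csrp3 and Mypn overlapped, and the doxorubicin arrays of Unc45b were still below all its PBS arrays. Of 24 alternative analyses of the time contrast, 21 kept the call of Csrp3, 11 that of Mypn and 12 that of Unc45b. Fhl2 was at -1.58 at 16 h and -1.22 at 72 h, and its time contrast did not pass. The time contrast of Ankrd1 was the largest in size of the 39 at 2.31, from -1.19 at 16 h to 1.12 at 72 h, and missed the threshold (limma adjusted p = 0.061). Of the other 77 genes 8 were less negative at 72 h and none more, among them Sorbs2 (1.46, limma adjusted p = 0.0084), Mylk3 (1.07, 0.015) and Hspb7 (1.195, 0.0070), a small heat shock protein of the sarcomere. No slide held arrays of both times. A shift shared by all arrays of a time cancels in this contrast, but a response that differs between slides cannot be told apart from time. Y-linked signal also differed, on 3 wild-type PBS and 1 doxorubicin arrays at 16 h and on 1 and 0 at 72 h.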

How the data were processed

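Total RNA was labelled with Cy3 and hybridised to Agilent arrays. The authors deposited scanner output of Feature Extraction (version 10.7.3.1, per the file headers) holding signal intensity per spot, and a value table, which equals a linear ratio to the median and served as an alternative. Processed intensity, background-subtracted by the scanner software, was converted to log2 and the array's 75th percentile subtracted (145.7 to 282.2 intensity units; 42.9% to 52.6% of spots well above background). Outlier spots were dropped and spots of a probe averaged. A probe was kept if 1 or more groups had it above background on each of their 3 arrays, and the brightest kept probe stood for its gene. Differences were fitted with limma 3.58.1 in R 4.3.3, the 4 groups of a time together (24 arrays for the time contrast), with Benjamini-Hochberg adjustment over all genes and a threshold of 0.05. The fit was tested on simulated data. Probe positions are those of the files (mm9), which give no exon or UTR annotation. The number of arrays, 3 per group, limits the precision.

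The members and all gene lists were chosen with earlier results of these data known. Named are all members that passed in any of 9 comparisons, the member nearest to the threshold, and the 3 smallest adjusted p-values of each other list, of which 1 gene is not reported here; values by array are given for up to 6 members per direction. Leaving out each array, other scalings and blocks, Y-linked signal and the second genotype label were tried as alternatives; matching arrays on Y-linked signal and an Esr1 covariate were added after seeing the data. Same-numbered arrays were not paired in the wild-type comparisons (correlations -0.124 to 0.0945 at 16 h and 0.00137 to 0.485 at 72 h). They passed the pairing rule for Top2b-deleted doxorubicin against PBS (0.115 to 0.286 at 16 h, 0.273 to 0.729 at 72 h) and for the genotypes under PBS at 72 h (0.353 to 0.548), where the pairing comes only from these correlations and the shared slide.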

Additional observations from a re-analysis of the deposited data

Results flagged for a closer look

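The doxorubicin responses of 8 members differed between the genotypes at 16 h by a test of the difference itself (limma, Top2b-deleted minus wild type). They were Fhl2 (1.62), Csrp3 (1.30), Unc45b (1.33), Ttn (1.01), Sgcd (0.848), Nebl (0.889), Ldb3 (1.10) and Flnc (1.14). Of these Flnc kept its call in 7 of 23 alternative analyses. The wild-type response of 3 members differed between the times (72 h minus 16 h): Csrp3 (1.18), Mypn (1.66) and Unc45b (0.852). Their calls were kept in 21, 11 and 12 of 24 alternative analyses. Groups hold 3 arrays, so single arrays were not screened for distance from their group.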

How the results depend on the processing

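The 15 falls in wild-type cells at 16 h numbered 7 when only the 2 groups compared were fitted and 0 with the genotype of the second label (no member rose in either); leaving out 1 array at a time, 10 to 19 members passed in either direction, 19 being 18 falls and 1 rise without wild-type doxorubicin replicate 1. Over all genes 2009 of 18751 passed with only the 2 groups fitted and 0 with the second label. With Y-linked signal as a covariate 12 members fell and 0 rose, when 5297 of 18751 genes passed. With the Esr1 probe as a covariate 12 members fell and 1 rose, when 6249 of 18751 genes passed. As falls in wild-type cells, Csrp3, Fhl2, Unc45b, Flnc, Ldb3, Nebl and Sgcd kept their call in 18 of 19 alternatives each, of which matching on Y-linked signal rests on 1 doxorubicin array. For the genotypes under PBS at 16 h the 4 members became 7 with normexp background correction (7 higher) or quantile normalization (6 higher, 1 lower). With only the groups compared they became 14 (10 higher, 4 lower), when 5143 of 18751 genes passed. They became 2 without the detection filter, with slide as a block, on slide 1 only or with the replicate block. With the second label they became 0, as did the count over all genes, and leaving out 1 array gave 2 to 7. The 8 differences between responses at 16 h became 4 without the filter, 2 with slide as a block, 0 with the second label (where Flnc turned to -0.038) and 6 to 14 leaving out 1 array, 14 (13 higher, 1 lower) without wild-type doxorubicin replicate 3. At 72 h the 2 wild-type calls became 0 without the filter, with only the groups compared or with Y-linked signal as a covariate, 1 on slide 1 only or with the Esr1 probe as a covariate, 6 with slide as a block, 9 with the replicate block (1 higher, 8 lower), and 0 to 5 leaving out 1 array (0 without PBS replicate 2 or 3 or doxorubicin replicate 3 or 4; 5 without doxorubicin replicate 2; 4 without PBS replicate 4). Over all genes 2639 of 19672 passed in that wild-type comparison with slide as a block and 3289 with the replicate block. The call between genotypes under PBS at 72 h became 2 with slide or the replicate block, when 795 and 909 of 19672 genes passed. The 3 time differences became 1 with the authors' value table or without the filter, 0 with only the groups compared, the second label or arrays matched in Y-linked signal, and 1 to 6 leaving out 1 array. With the replicate block 12 wild-type falls and 7 differences between responses passed at 16 h. The Top2b difference at 16 h was -0.26 with the second label. Over 33 member calls and 667 alternative fits, 475 kept the call, 191 kept the direction without it and 1 reversed; causes were not tested. Probes near background, such as that of Ankrd2, limit what can be said of low genes.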
